A study of Mus musculus with 4 samples.

Results

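The acinar regulator Ptf1a was found in crowded stretches of the pancreatic genome, and the stretches described here are the largest of these that also held c-Myc. Neighbouring autosomal Ptf1a peaks were joined into a chain when the gap between them, from the end of one to the start of the next, was at most 12500 bp. A chain was kept when it had 5 or more Ptf1a peaks and when at least 1 Myc peak overlapped the span from its first to its last base. This rule gave 245 chains with 1675 Ptf1a peaks, of 17423 on the autosomes and 17632 in the whole list. They were 9.61% of the autosomal Ptf1a peaks. The same spans held 497 of 5417 autosomal Myc peaks, or 9.18%.

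Chromatin immunoprecipitation with sequencing (ChIP-seq) was done on pancreas of Ela1-myc mice aged 8 weeks. These mice carry a Myc transgene driven by an elastase promoter, which is active in acinar cells. The Ptf1a library came from 1 mouse, precipitated with a Ptf1a antibody, whereas material of 3 mice of the same genotype and age was pooled for c-Myc and precipitated with antibody N262. Every library came from transgenic mice, so the transgene is shared by both sides of each comparison, and mice without it were not analysed here. Whole pancreas also holds duct, islet and vessel cells, and peak lists carry no expression by which the cell type could be checked.

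Ptf1a is a basic helix-loop-helix protein that pairs with an E protein and with RBPJ or RBPJL in the trimeric PTF1 complex. In the adult pancreas this complex binds and activates genes for digestive enzymes and for other acinar products. Many sites of one lineage factor within a short stretch are a known feature of genes that define a cell type, and joining peaks at this distance is a common way to delimit such stretches. c-Myc, a basic helix-loop-helix leucine-zipper protein, pairs with MAX at E-boxes and drives growth and proliferation. The series title places the study in the step from pre-acinar to acinar cells, for which a fall of c-Myc is named as a requirement.

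Each factor had 1 library. No value below has a replicate error, and no test was made. Brackets with a percentage give 95% Wilson intervals, which cover counting error only, and peaks of 1 chain are not independent. The score is the peak caller's value as the authors deposited it, its scale is stated in no header or label, and it starts at 50.0 in both lists. It is used only to rank and describe peaks within a list. The depth of both libraries is unknown, so a Ptf1a peak without a Myc peak may be a Myc site that was not called. Positions are on mm9 and counted from 1. Gene names and peak sequences were not used here, for want of mm9 gene positions and sequence.

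The chains were compact. The median member chain had 6 Ptf1a peaks in 25.4 kb, with quartiles of 18.5 and 33.3 kb, a shortest span of 7.19 kb and a longest of 79.0 kb. Chains of 5 were the most frequent, with 82 of the 245, followed by 59 chains of 6 and 42 of 7. The remaining 62 had 8 or more peaks, and the largest had 18. Within a chain, the next Ptf1a peak stood at a median of 3019 bp (quartiles 989 and 6186 bp over 1430 gaps). In 361 gaps, 25.2%, the peaks were 1 kb or less apart, and the closest were separated by 1 bp. Some chains therefore contain runs of nearly touching calls as well as separate sites. In chains of 5 or more without a Myc peak, 19.1% of 534 gaps were that short, and the median gap was 3515 bp.

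Member chains were found on all 19 autosomes, in uneven numbers. Chromosome 5 had 23, chromosomes 8 and 15 had 21 each, and chromosome 11 had 20. Chromosomes 17 and 18 had 5 each and chromosome 16 had 4. As a share of each chromosome's Ptf1a peaks, members made up 15.6% on chromosome 15 and 15.05% on chromosome 8, but 4.04% on chromosome 17 and 4.90% on chromosome 1. Chromosome 1 thus had many Ptf1a peaks, 1102, with few of them in these chains. The share of members that overlapped a Myc peak ran from 17.9% of 28 peaks on chromosome 16 to 38.2% of 34 on chromosome 18, and the intervals of these extremes overlap (7.88 to 35.6% and 23.9 to 55.0%).

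Longer chains more often held a Myc peak. Of 329 chains of 4 Ptf1a peaks, 48.0% had a Myc peak in the span (42.7 to 53.4%). The share was 58.6% of 140 chains of 5 (50.3 to 66.4%), 79.2% of 53 chains of 7 (66.5 to 88.0%) and 88.6% of 70 chains of 8 or more (79.0 to 94.1%). A longer chain also offers more sequence, since the median span grew from 14.0 kb for chains of 4 to 37.3 kb for chains of 8 or more. Per 100 kb of span there were 4.51 Myc peaks in chains of 4, 4.82 in chains of 5, 4.08 in chains of 6 and 6.57 in chains of 8 or more, counting chains with and without Myc. This density did not follow chain size step by step, since chains of 2 and 3 had 4.68 and 5.21. Counted per Ptf1a peak, overlap with Myc was 10.7% (10.03 to 11.4%) for peaks standing alone, 16.7% (15.3 to 18.3%) in chains of 3, 16.03% (14.2 to 18.1%) in chains of 4, 15.9% (13.2 to 19.2%) in chains of 6 and 22.4% (19.5 to 25.7%) in chains of 8 or more.

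**Figure D1:**
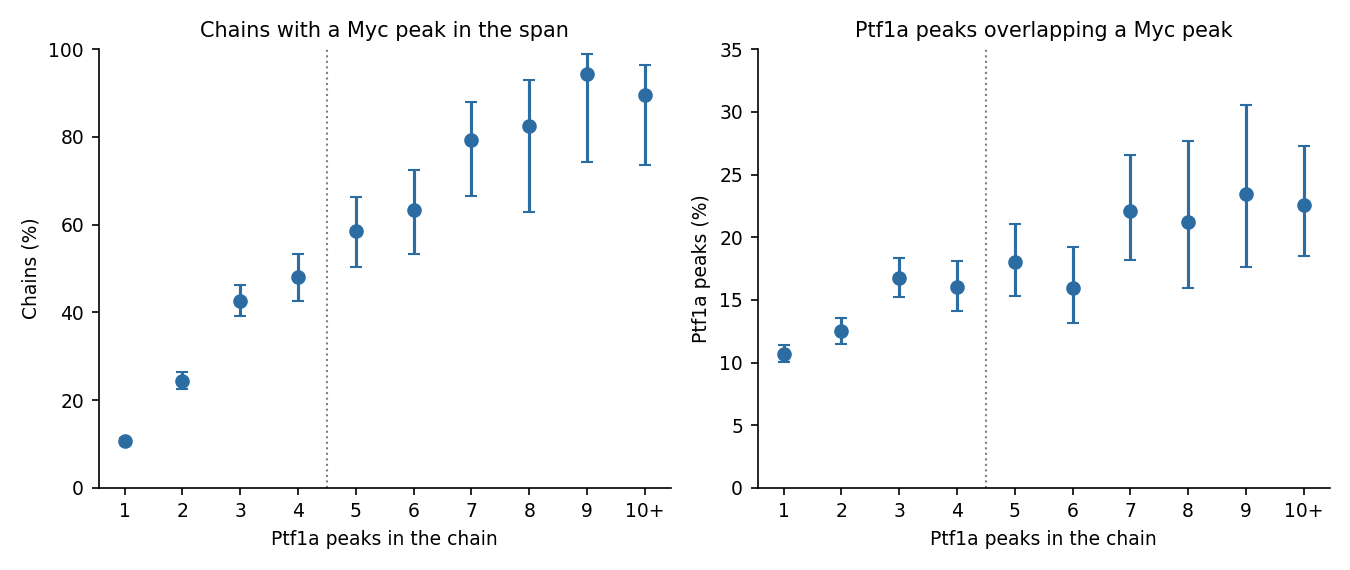
Share of chains with a Myc peak in their span (left, %) and share of Ptf1a peaks that overlap a Myc peak (right, %), by the number of Ptf1a peaks in the chain. Points are shares over all autosomal chains, bars are 95% Wilson intervals, and the dotted line marks the limit of 5 peaks; the left share is 10.7% for single peaks, 94.4% for chains of 9 and 89.7% for chains of 10 or more, while the right one stays below 25%.

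A typical member chain was thus mainly a Ptf1a stretch with few Myc sites. One Myc peak lay in the span of 109 chains, 2 in 69 chains and 3 in 38. Another 17 chains had 4, 9 had 5, 2 had 6, and a single chain had 11. At the level of Ptf1a peaks, 452 of the 1675 members overlapped a Myc peak by at least 1 bp, or 27.0% (24.9 to 29.2%). Over all autosomal Ptf1a peaks the share was 13.5%. The rule asks for a Myc peak in every chain and so raises the members' share. Exactly 1 Ptf1a peak overlapped Myc in 108 chains, and 2 or more did in 123 chains (50.2%). In 20 chains more than 50% of the Ptf1a peaks overlapped Myc, and in 1 chain every peak did. The members were 19.3% of the 2347 autosomal Ptf1a peaks that overlapped Myc.

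Where a Myc peak lay within a chain, it mostly lay on one of the Ptf1a peaks and not between them. Of the 497 Myc peaks in the spans, 423 overlapped a Ptf1a peak, or 85.1% (81.7 to 88.0%). Over all autosomal Myc peaks 41.6% did so, and the rule favours overlap in the members, because a Myc peak enters the count by touching a stretch that begins and ends with a Ptf1a peak. Among the 497, 90 reached past the end of a span, and for these overlap with an end peak was fixed by the rule. The midpoint of a Myc peak was a median of 133 bp from the midpoint of the nearest member, and 402 of the 497, or 80.9%, were within 500 bp. In the 455 overlapping pairs the midpoints were a median of 118 bp apart, against 108 bp in the other 1904 autosomal pairs. The quartiles were 48.5 and 250 bp in the members and 48.5 and 217 bp in the other pairs, so most distances fell in the same range. Within the chains 31 Myc peaks reached over several Ptf1a peaks, and 3 Ptf1a peaks over several Myc peaks.

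The other 74 Myc peaks stood in the gaps of the chains. Their nearer edge was a median of 978 bp from a Ptf1a peak (quartiles 567 and 1970 bp), with the closest at 5 bp and the farthest at 4878 bp. These Myc peaks had a median score of 72.7, against 80.6 for those on a Ptf1a peak. In 14 chains, with 100 Ptf1a and 18 Myc peaks, Myc was found in gaps only. The largest of these, named after their values were seen, each had 11 Ptf1a peaks. One lay on chromosome 8 at 125160678 to 125215458, where the stronger of 2 Myc peaks scored 73.8 at 125203806 to 125204745. The other lay on chromosome 9 at 63539706 to 63575342 and had a single Myc peak (score 60.7). Strong Ptf1a sites occur in these chains too: a chain of 6 on chromosome 5 at 28366586 to 28399110 reached a Ptf1a score of 2286, and its only Myc peak, in a gap, scored 56.6.

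Myc peaks in the spans scored slightly higher than the rest of their list, though the highest autosomal Myc score lay elsewhere. Their median score was 79.5 (quartiles 62.4 and 120), and that of the other 4920 autosomal Myc peaks 74.9 (59.3 and 106). Of the 497, 166 scored at least 100, or 33.4% (29.4 to 37.7%), as did 28.7% of all autosomal Myc peaks. The highest Myc score in any span was 389, while the list as a whole reaches 2074 on the autosomes. Of the 100 highest autosomal Myc peaks, 9 lay in the spans, close to the 9.18% of all autosomal Myc peaks that did so.

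The 19 chains named here are those with the most Ptf1a peaks (8 chains), the most Myc peaks (5), the largest share of Ptf1a peaks on Myc (5) and the highest Ptf1a scores (5), with some chosen by more than one of these. They differ widely in how much Myc they hold. Chains with many Myc peaks or a large share on Myc are described first, then the largest chains with few Myc peaks, and last those named for their Ptf1a score alone.

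The chain with the most peaks of both kinds lay on chromosome 11 at 57765679 to 57824601. Its strongest Ptf1a peak, at 57801936 to 57802692, scored 2362 and overlapped a Myc peak of score 88.6. The next 3 by score, 1582, 1319 and 1202, stood 1.91, 14.7 and 51.8 kb from the start of the chain and also overlapped Myc, with partners of 132, 74.8 and 112. The 4 leading Ptf1a peaks of this chain were thus all shared. Sharing extended to weak peaks, since Ptf1a peaks of 70.8, 85.1 and 93.0 also had a Myc partner, while one of 581 had none. A run of 3 unshared peaks (58.6, 98.2 and 238) separated the last 2 shared ones from the rest. The strongest Myc peak of the chain, at 57821328 to 57822444 with a score of 262, stood in a gap and touched no Ptf1a peak.

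Chromosome 8 held a chain of 15 Ptf1a peaks at 114209673 to 114269917, in which all 6 Myc peaks lay on Ptf1a peaks. Its leading peak, at 114228415 to 114229635, scored 3100 and overlapped the strongest Myc peak of the chain (121). Shared and unshared peaks were not mixed evenly. Between 9.88 and 22.7 kb from the start, 4 Ptf1a peaks in a row were shared, with scores of 762, 264, 3100 and 314. The second strongest, of 1513, stood at 5.48 kb and had no Myc peak. From 31.3 kb to the end of the chain, 1 of 6 peaks was shared, and the scores of these 6 ran from 67.6 to 140.

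On chromosome 4 at 141365848 to 141423845, 12 Ptf1a peaks spanned 58 kb and 6 Myc peaks each fell on one of them. This chain had 3 Ptf1a peaks of nearly the same high score, 1980, 1964 and 1873. The first of them, at 141383135 to 141384881, overlapped a Myc peak of 194, the second one of 85.03, and the third none. The remaining Myc peaks were weak, between 52.2 and 62.4. Several Ptf1a peaks in the first 20 kb of this chain were wide: the second covered 2969 bp at 141369828 to 141372796, and 4 others covered 1271 to 1871 bp, while the first covered 413 bp. Over all members, 19 peaks (1.13%) in 13 chains were 1500 bp or wider, and 12 of these overlapped Myc. Among all autosomal Ptf1a peaks, 27 of the 50 that wide overlapped Myc, and the rule asks for a Myc peak in every member chain. In chains of 5 or more without Myc 0.620% of peaks were that wide, with an interval (0.241 to 1.58%) that overlaps that of the members (0.727 to 1.76%), and in all autosomal Ptf1a peaks 0.287% were.

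Full sharing was seen in a chain of 5 on chromosome 3 at 83825945 to 83844362. Its Ptf1a scores, in order along the chromosome, were 393, 1171, 57.7, 89.8 and 58.5. The Myc partners scored 66.9, 53.6, 72.6, 103 and 97.7 in the same order. The strongest Ptf1a peak, at 83834918 to 83835602, therefore had the weakest Myc partner, and the strongest Myc peak lay on a Ptf1a peak of 89.8.

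Other chains with a large share on Myc had 5 to 9 Ptf1a peaks. On chromosome 11 at 93994586 to 94008149, 6 of 7 Ptf1a peaks overlapped 4 Myc peaks, because 1 Myc peak of 1015 bp touched 3 of them. The leading Ptf1a peak (1273) had a Myc partner of 66.2. Only 13.6 kb farther along began a chain of 14 Ptf1a peaks at 94021741 to 94072325, just beyond the joining distance, with 5 shared peaks and 5 Myc peaks. There the Ptf1a peak of 1583 was shared and that of 1367 was not, and the strongest Myc peak (179) lay on a Ptf1a peak of 258 near the far end.

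A chain of 5 on chromosome 2 at 26080591 to 26098367 had 4 shared peaks. The first, of 3100, carried the strongest Myc peak of the chain (269, at 26080722 to 26081542). The unshared one was the weakest, at 55.7. On chromosome 6 at 51268353 to 51283424, 5 of 7 were shared, among them the peaks of 978 and 849, and the strongest Myc peak (109) stood on a Ptf1a peak of 82.6. On chromosome 10 at 80424928 to 80457957, 6 of 9 were shared. In that chain 2 wide Myc peaks, of 140 and 157, each covered a pair of adjacent Ptf1a peaks with scores between 72.9 and 222, while the leading Ptf1a peak (889) had a Myc partner of 89.7.

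On chromosome 1 at 157048360 to 157087793, 5 Myc peaks lay in a chain of 12. The 2 strongest Ptf1a peaks, of 603 and 511, stood side by side at the far end and had no Myc peak. The strongest Myc peak (179) lay on a Ptf1a peak of 129 instead.

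Several of the largest chains held little Myc. The longest of all, on chromosome 5 at 124416752 to 124495779, had 16 Ptf1a peaks over 79.0 kb and 2 Myc peaks. Its leading Ptf1a peak, at 124454351 to 124455530 with a score of 1897, had no Myc peak, nor had the next 2, of 811 and 649. The Myc peaks, of 84.3 and 72.5, lay on Ptf1a peaks of 76.2 and 401. On chromosome 11 at 74301147 to 74368548, another 16 peaks included 4 of similar strength: those of 1031 and 822 were shared, with Myc partners of 135 and 120, and those of 1020 and 1013 were not.

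In the chains of 13, Myc was as sparse. On chromosome 2 at 147786738 to 147856269, 1 Ptf1a peak of 342 was shared with a Myc peak of 73.8, the leading peak of 1300 was not, and a second Myc peak (81.4) stood in a gap. On chromosome 8 at 129410738 to 129447034, the peaks of 1800 and 771 were unshared, and the shared ones scored 314 and 54.4. On chromosome 6 at 94586791 to 94639170, by contrast, the leading peak (890) was shared and carried the strongest Myc peak of the chain (108).

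The highest autosomal Ptf1a score, 3196, lay outside the members. The remaining chains were named for a Ptf1a peak of 3100, a score that 12 autosomal peaks share and that 7 members have. On chromosome 12 at 93061694 to 93094215, that peak (93091950 to 93093796) overlapped a Myc peak of 307, and the other 6 scored between 50.9 and 243. On chromosome 19 at 58740955 to 58776493, it overlapped a Myc peak of 120, and a second strong peak (1901) overlapped the strongest Myc peak there, 205. On chromosome 14 at 51761486 to 51772483, it had a Myc partner of 99.5, whereas the neighbour of 2450 had none. The 2 peaks that follow the first in the same chain were wide, at 3215 and 1736 bp, and on them lay 3 weak Myc peaks (54.8 to 68.9). On chromosome 15 at 36962472 to 36980745, by contrast, the peaks of 3100, 1509 and 1177 were all without Myc, and the single Myc peak (61.2) overlapped the weakest Ptf1a peak, of 88.4.

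**Figure D2:**
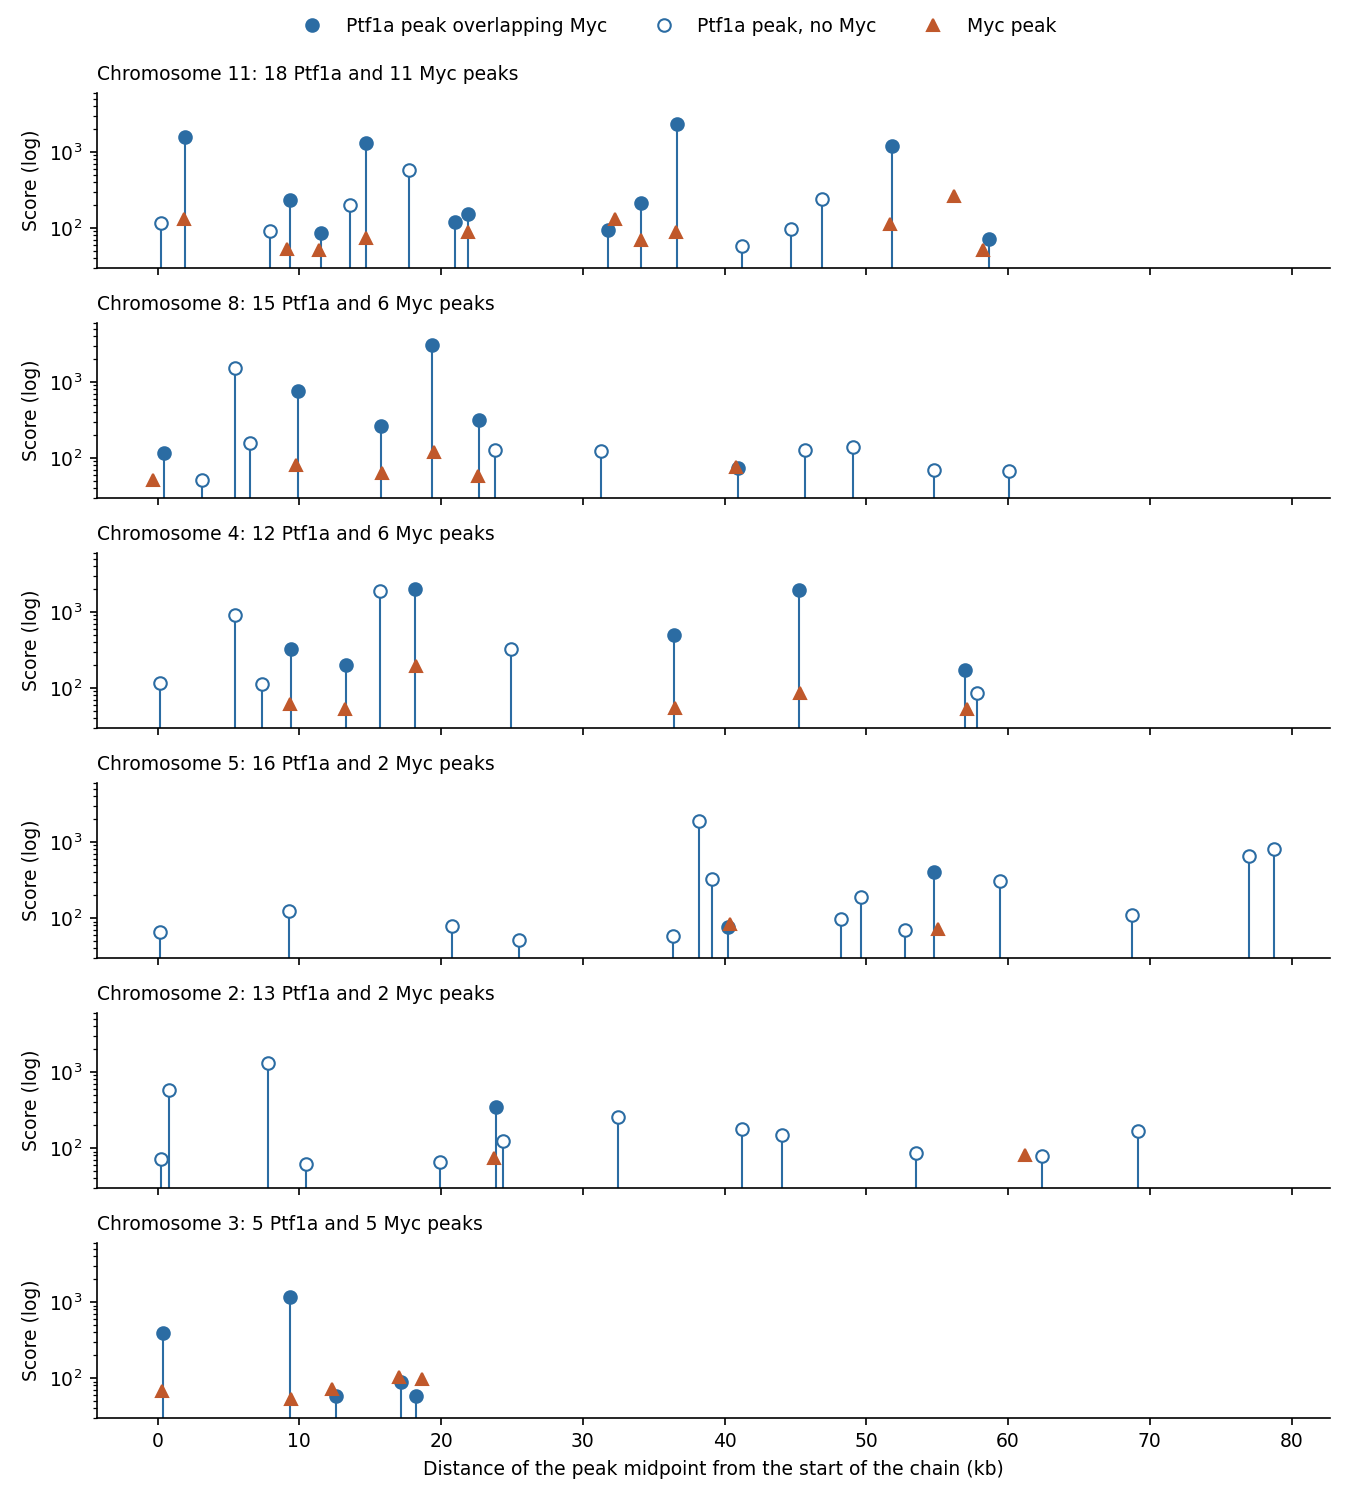
Ptf1a and Myc peaks along 6 of the named chains, plotted as score (log scale) against the distance of the peak midpoint from the start of the chain (kb); circles are Ptf1a peaks, filled where they overlap Myc, and triangles are Myc peaks. The upper 3 chains and the one on chromosome 3 hold 5 to 11 Myc peaks, and those on chromosomes 5 and 2 hold 2 among 16 and 13 Ptf1a peaks.

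Across the 245 chains, the Ptf1a peak with the highest score was the one that most often overlapped Myc, though in fewer than 50% of chains. It did so in 106 chains, or 43.3% (37.2 to 49.5%). The share was 33.5% (27.9 to 39.6%) for the second, 26.5% (21.4 to 32.4%) for the third and 24.9% (19.9 to 30.7%) for each of the next 2. For the lowest-scoring peak of the chain it was 20.8% (16.2 to 26.3%). In 89 chains the highest but not the lowest peak overlapped Myc, in 34 the reverse was seen, in 17 both did and in 105 neither. Among the 108 chains with exactly 1 overlapping peak the difference was smaller. There it was the highest peak in 27.8% (20.2 to 36.9%) and the lowest in 17.6% (11.6 to 25.85%), with overlapping intervals. Overlap also rose with score among Ptf1a peaks standing alone, from 7.60% in the lowest to 16.9% in the highest of 5 equal parts of the list. The median score of members on Myc was 237, against 131 for those that were not. Width moved with rank, with a median of 712 bp for the leading peak and 411 bp for the lowest, and its part in the overlap was not tested. With a partner defined by midpoints within 500 bp, which does not use width, the shares were 41.2% for the highest and 18.4% for the lowest.

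**Figure D3:**
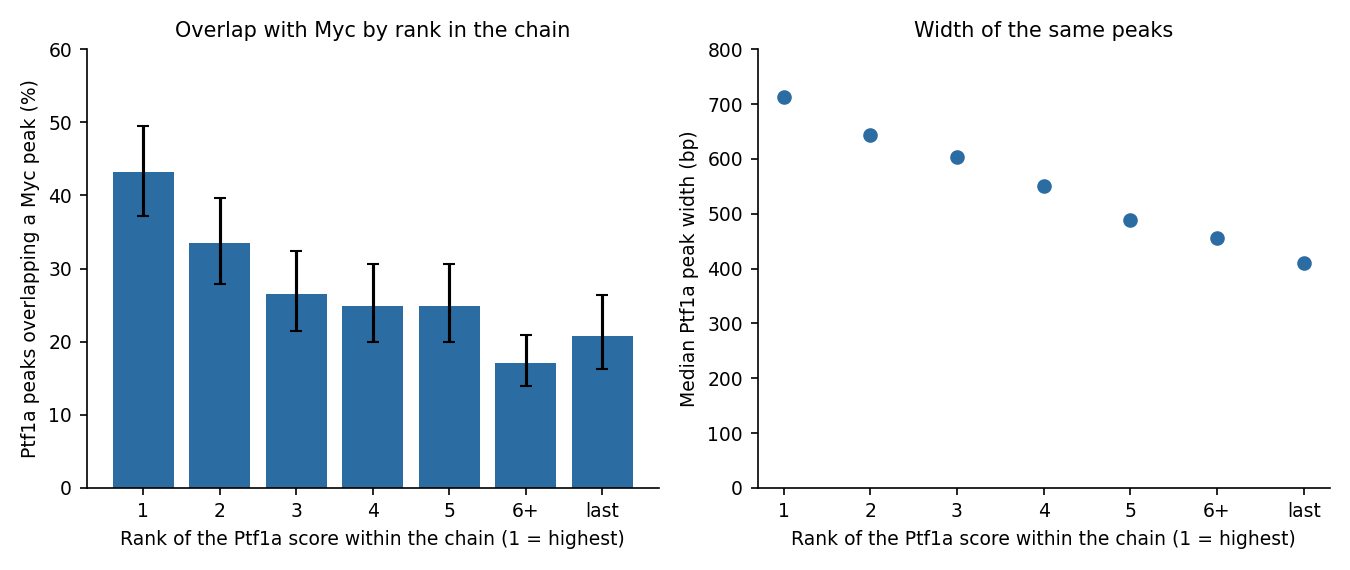
Share of Ptf1a peaks overlapping a Myc peak (left, %, bars with 95% Wilson intervals) and their median width (right, bp), by rank of the Ptf1a score within the 245 chains; "last" is the lowest-scoring peak of each chain and repeats peaks of rank 5 and below. Overlap drops from 43.3% at rank 1 to 17.1% at rank 6 and lower, and median width drops from 712 to 456 bp over the same ranks.

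The highest peaks of the 2 factors coincided in a minority of chains. The highest Ptf1a and the highest Myc peak of a chain overlapped in 70 chains (28.6%). Among the 136 chains with a choice of 2 or more Myc peaks, they overlapped in 44 (32.4%). For scale, the highest Ptf1a peaks of the chains were 14.6% of the members, and 22.7% of the Myc peaks in the spans lay nearest to one. Position within the chain made a smaller difference than rank: 28.4% (25.9 to 31.1%) of the peaks inside a chain overlapped Myc, against 23.5% (19.9 to 27.4%) of those at either end.

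Chains with and without Myc were next set side by side. The 111 chains of 5 or more that held no Myc peak had 645 Ptf1a peaks, with a median of 5 per chain and a median span of 23.8 kb, against 6 and 25.4 kb in the member chains. Ptf1a scores were higher in the members, with a median of 152 (quartiles 82.3 and 387) against 118 (69.1 and 268). The 1223 members that did not overlap Myc had a median of 131. Peaks standing alone had a median of 105. A score of 100 or more was found in 1105 members, or 66.0% (63.7 to 68.2%), in 56.9% (53.0 to 60.7%) of the peaks in chains without Myc, and in 56.7% of all autosomal Ptf1a peaks. The leading peak of each chain had a median score of 847 in the members and 565 without Myc, but larger chains have higher leading peaks and the members are larger. Among chains of exactly 5 peaks the medians were 599 (82 member chains) and 538 (58 without Myc), and among chains of 6 they were 739 (59) and 563 (34). The weakest peaks of the chains had medians of 59.5 and 56.8, both close to the lowest score in the list. Of the 100 highest autosomal Ptf1a peaks, 33 were members, while members made up 9.61% of all autosomal Ptf1a peaks. Members were also slightly wider, with a median of 556 bp against 522 bp. These scores come from the library whose peaks formed the chains. Overlap with Myc rose with Ptf1a score, so a rule that asks for Myc also favours high Ptf1a scores in the members. The values are given as a description.

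**Figure D4:**
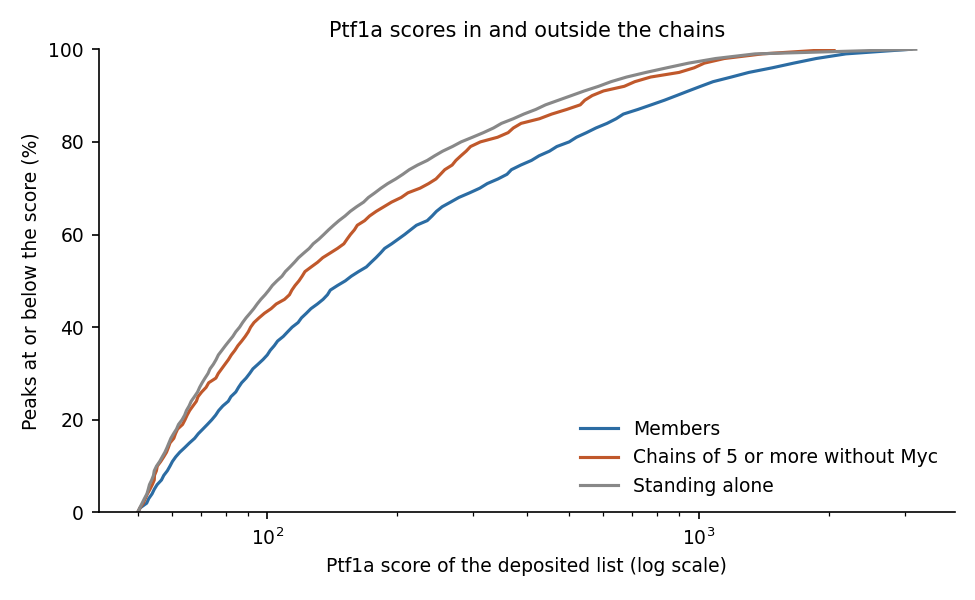
Cumulative share of Ptf1a peaks (%) at or below a given score (log scale) for the 1675 members, the 645 peaks of chains of 5 or more without Myc, and the 7578 autosomal peaks standing alone. The curve of the members lies to the right, with a median of 152 against 118 and 105.

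Because the members were required to hold Myc, their rate of overlap cannot be set against that of other peaks. All 356 chains of 5 or more, with or without Myc, were therefore compared with the 7578 Ptf1a peaks that stood alone. In the chains 452 of 2320 peaks overlapped Myc, or 19.5% (17.9 to 21.1%), against 10.7% (10.03 to 11.4%) of those alone. In a chain 1 Myc peak can count for several close Ptf1a peaks, as 31 did, whereas peaks standing alone are too far apart for this. The share in chains was higher in each part of the list by Ptf1a score, but the intervals were not separate in every part. Overlapping intervals do not by themselves place a difference within counting error, and the differences were not tested. The list was divided by score into 5 parts of equal size. In the lowest part, 12.6% (9.61 to 16.3%) of chained and 7.60% (6.43 to 8.96%) of single peaks overlapped Myc. In the second part the intervals overlapped, with 13.5% (10.5 to 17.1%) and 9.61% (8.29 to 11.1%). In the highest part the shares were 31.9% (28.3 to 35.7%) and 16.9% (14.9 to 19.0%). When the list was divided by width instead, the intervals overlapped in the middle part, where chained peaks reached 13.1% (10.2 to 16.6%) and single ones 10.2% (8.74 to 11.8%), and in the next wider part, with 17.03% (13.9 to 20.7%) and 13.8% (12.2 to 15.7%). In the widest part the shares were 34.6% (31.1 to 38.4%) and 20.1% (17.9 to 22.4%).

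**Figure D5:**
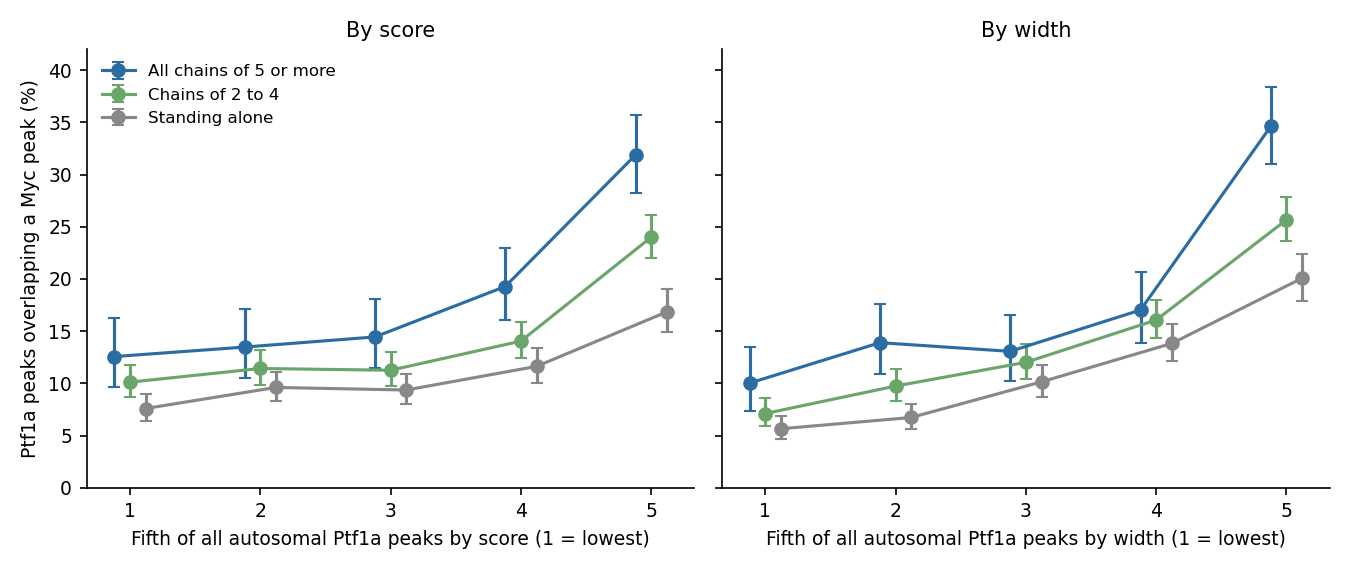
Share of Ptf1a peaks overlapping a Myc peak (%) in 5 equal parts of the autosomal list by score (left) and by width (right), for peaks in all chains of 5 or more, in chains of 2 to 4 and standing alone; bars are 95% Wilson intervals. Chained peaks lie above single ones in every part, from 12.6 against 7.60% in the lowest to 31.9 against 16.9% in the highest part by score.

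The limits of the rule fell within a continuous range. The largest gap joined was 12500 bp and the smallest not joined 12504 bp. Chains of 4 with a Myc peak, which the rule leaves out, numbered 158, with a median leading score of 570 and 33.4% of peaks on Myc. The 82 chains of 5 had 599 and 30.7%. Many member chains had further Ptf1a peaks close by, since in 135 of 245 (55.1%) the next one stood within 25 kb.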

How the data were processed

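Peak lists of 1 Ptf1a and 1 c-Myc ChIP-seq library were analysed, and the 2 input libraries were not used here. Fixation in 1% formaldehyde lasted 20 min and shearing gave fragments of 300 to 500 bp, per the labels' protocols. The build was mm9 and the tools named were MACS 1.4.1, BWA 0.5.9-r16, FastQC 0.9.4 and CASAVA 1.8, per the submitters' processing notes. What each tool did, with which settings and threshold, and whether inputs served as controls are details not given in the sources used here. The authors deposited a score for each peak, on a scale that is not stated. No counts are given, so the depth is unknown.

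Chains were built on the 19 autosomes by the rule given in the opening of the results. Sharing meant an overlap of 1 bp or more between peaks of the 2 lists. The members, lists and alternatives were chosen with earlier results of these data known. Chains named are the 8 with the most Ptf1a peaks, and the 5 with the most Myc peaks, the largest share on Myc and the highest Ptf1a score; ties went to the chain with more peaks, then the larger summed score. Starts of genes, fixed gene lists and E-box motifs had been planned and were not analysed, because the reference tables at hand are on another build than mm9. The building of chains was tested on simulated data. Python 3.11.15, numpy 2.4.6, pandas 2.3.3, scipy 1.17.1 and matplotlib 3.10.9 were used.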

Additional observations from a re-analysis of the deposited data

How the results depend on the processing

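No paired analysis was possible because the Ptf1a and the c-Myc list each rest on a single library, and leaving out a replicate was impossible for the same reason. Of 54 values under alternatives, 29 stayed within a set limit of the value reported and 25 moved beyond it. The limit was 1.5-fold for counts and score differences, and the 95% interval of the reported value for shares. A value within the limit could still differ clearly, as did the 2307 members with chains of 4 or more and the 1265 with chains of 6 or more. Only the differences in median score could have changed direction, and 0 did, since the other values are counts and shares. The number of chains and members followed the rule, with 245 chains and 1675 members as reported. A joining gap of 5 kb gave 72 chains and 428 members, and 25 kb gave 477 and 3558. Only Ptf1a peaks of score 100 or more gave 80 and 487, and only Myc peaks of score 100 or more gave 130 and 926. Alternatives chosen after seeing the data were chains of 4 or more (403 chains), chains of 6 or more (163 chains), Ptf1a peaks within 1 kb merged (163 chains, 1022 members), midpoints within 500 bp, and leaving out the chain with the most peaks, under which no value moved. The share of members on Myc, 27.0%, was 30.8 and 23.2% with gaps of 5 and 25 kb, 33.1 and 17.7% with the score limits on Ptf1a and Myc, and 24.9% by midpoints. The share of Myc peaks on a member, 85.1%, was 95.2 and 78.6% with those gaps, 89.2% with the limit on Myc scores and 80.9% by midpoints. The leading peak of a chain overlapped Myc in 51.4% of chains with a gap of 5 kb, against 43.3%. The median Ptf1a score of members exceeded that of chains without Myc by 33.2, by 18.4 with a gap of 25 kb, by 17.4 with Ptf1a scores of 100 or more, where 10 chains without Myc were left, and by 59.5 with close peaks merged. The cause of these moves was not tested, beyond the fewer or more peaks that each alternative admits. Alternatives for gene starts, motifs and gene lists were not run. At an unknown depth, sites absent from a list may be uncalled sites.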
